A study of Mus musculus with 18 samples.

Results

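Counts of 10 genes for lectins and receptors of tissue-resident macrophages, Cd209f, Cd209g, Cd209d, Cd163, Mrc1, Lyve1, Timd4, Folr2, Clec10a and Mgl2, were compared between PPARg T166A and WT mice in 2 macrophage sources. All 10 were listed in both count tables, among 26149 genes in skin and 26165 genes in bone marrow-derived macrophages (BMDM). Cd209f and Cd209g were chosen because they were among the genes with the largest decreases in T166A skin libraries, so their skin values are a description and carry no test. The other 8 were chosen for their function, with results of these libraries already known.

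The 18 mouse RNA-seq libraries fell into 4 groups, all identified by their labels. The skin groups were T166A (n = 6) and WT (n = 6), made from cells that bound anti-F4/80 beads after enzymatic digestion of dorsal skin, 6 days after skin injury. The BMDM groups were T166A (n = 3) and WT (n = 3), made from bone marrow of femurs and tibiae cultured for 7 days with 50 ng/ml of the macrophage growth factor M-CSF, with 2 libraries of each genotype in a batch labelled B1 and 1 of each in a batch labelled B2. T166A is an allele of the nuclear receptor PPARg in which the threonine at the named position, a phosphorylation site according to the series title, is an alanine. WT mice were C57BL/6J for the BMDM, and no source used here gives the background strain or zygosity of the mutant or the age and sex of the mice. The labels name no Cre or other restriction to macrophages, and counts per gene do not show the allele, so the genotypes rest on the labels. Nothing stated that replicates were separate mice or cultures, so p-values measure the spread between libraries, which may be technical. The extraction text in the labels speaks of adipocytes for all libraries, while the cell type labels name macrophages.

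Macrophages that live long in a tissue carry surface receptors for sugars, dying cells and plasma cargo. The CD209 family consists of C-type lectins related to human DC-SIGN, which bind mannose and fucose on microbes and host glycoproteins. Mrc1 is the mannose receptor, Clec10a and Mgl2 are the paired galactose-type lectins of mouse macrophages and dendritic cells, and Cd163 takes up complexes of haemoglobin with haptoglobin. Timd4 binds phosphatidylserine on dying cells, Folr2 is folate receptor beta, and Lyve1 binds hyaluronan and is also made by lymphatic endothelium. In dermis and other connective tissue, macrophages positive for these receptors lie along vessels and nerves, and macrophages that arise from blood monocytes can acquire some of them.

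On GRCm38, the build of the counts, the 3 CD209 members lay in a cluster on chromosome 8, with Cd209f at 4102784 to 4105838, Cd209g at 4134246 to 4137707 and Cd209d at 3871824 to 3878548. Clec10a (70166623 to 70170836) and Mgl2 (70130125 to 70137542) were neighbours on chromosome 11, which also held Timd4 (46810786 to 46844333). Cd163 lay on chromosome 6 (124304636 to 124330529), Mrc1 on chromosome 2 (14229414 to 14332023), and Lyve1 (110850607 to 110862953) and Folr2 (101839988 to 101857190) both on chromosome 7. Counts covered the exons of 1 transcript of each gene, with UTRs.

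The coding sequences of Cd209f (765 bases) and Cd209g (582 bases) were identical at 521 of 576 aligned bases (90.5%). Over whole transcripts with UTRs, 38.1% of the 50-base stretches of Cd209f occurred unchanged in Cd209g. Reads from such stretches cannot be assigned to one of the pair, and no source used here says how they were counted, so the separate values of Cd209f and Cd209g are uncertain. Cd209d had no 50-base stretch in common with either, at 72% coding identity with Cd209f. Clec10a and Mgl2 were 92% identical in coding sequence, with 17.2% of the 50-base stretches of the whole Clec10a transcript shared, and their separate values have the same limit.

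The promoters of Cd209f and Cd209g are shown because this pair had the lowest fold changes of the 10 genes, and because their start regions are nearly copies of each other. The 300-base windows (250 bases before and 50 after the RefSeq start, GRCm38.p6) lay at chr8:4105715-4106014 on the minus strand for Cd209f and chr8:4134486-4134785 on the plus strand for Cd209g. The Cd209g window lies wholly inside the gene span given above, which begins upstream of it at 4134246, so it surrounds a start within that span. Capitals mark the longest run that both windows share, 180 bases (bases 97 to 276 of Cd209f and 83 to 262 of Cd209g).
Cd209f: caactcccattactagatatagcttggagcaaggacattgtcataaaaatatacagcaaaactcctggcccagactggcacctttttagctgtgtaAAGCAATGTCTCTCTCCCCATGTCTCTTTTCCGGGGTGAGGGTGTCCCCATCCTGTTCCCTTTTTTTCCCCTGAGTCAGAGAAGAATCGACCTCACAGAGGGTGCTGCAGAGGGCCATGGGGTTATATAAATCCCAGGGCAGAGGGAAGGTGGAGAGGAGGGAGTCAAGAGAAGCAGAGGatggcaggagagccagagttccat
Cd209g: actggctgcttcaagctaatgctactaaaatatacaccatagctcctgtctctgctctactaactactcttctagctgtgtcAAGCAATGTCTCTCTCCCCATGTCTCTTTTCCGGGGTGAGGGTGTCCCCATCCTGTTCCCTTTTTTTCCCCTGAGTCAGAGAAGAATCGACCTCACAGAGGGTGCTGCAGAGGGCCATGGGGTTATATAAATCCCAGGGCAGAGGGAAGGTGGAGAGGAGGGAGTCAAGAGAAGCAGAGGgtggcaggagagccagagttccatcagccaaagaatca
Over 281 aligned bases, 258 were identical. Between all other pairs of the 7 listed CD209 genes, the longest shared run was 7 to 17 bases. Within the capitals both windows held the AP-1 motif TGANTCA and, after it, TATAAA. Searched on both strands, TGANTCA was in 7.81% of 32851 RefSeq windows of this length, and of the 8 members with a window it was in 3 (Cd209f, Cd209g and Folr2). TATAAA was in 13.6% of all windows and in those of Cd209f and Cd209g among the members. No member window held the PPAR response element, searched as AGGTCA repeated in the same direction with 1 base between (0.0396% of all windows), the STAT6 motif, searched as TTC and GAA with 4 bases between (6.95%), or the PU.1 motif GAGGAAGT (3.2%). The motifs do not overlap one another in these windows, and a match or its lack describes only these letters.

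Depth ranged from 29357354 to 38774475 gene counts in skin libraries and from 40072513 to 44152639 in BMDM libraries. In skin, the genotypes differed in markers of several cell types. Genotype differences of the 10 genes in skin cannot be told apart from these marker differences. The summed level of 10 macrophage markers was 9261 to 10491 CPM (counts scaled to a common library size with TMM factors) in T166A and 10935 to 13957 CPM in WT libraries, and 8 of the 10 were called lower. That of 8 adipocyte markers was 77.2 to 125 CPM in T166A and 12.4 to 30.1 CPM in WT, with 7 of 7 tested genes called higher, among them Adipoq (9.91 ± 2.29 CPM in T166A and 0.916 ± 0.375 CPM in WT). Blood endothelium markers summed to 1078 to 1542 CPM in T166A and 806 to 1057 CPM in WT, with 4 of 6 called higher. Beyond fits with a marker score as a covariate, their part in the results was not tested. The summed macrophage and adipocyte markers each separated the genotypes without overlap, so a score of either largely repeats the genotype. A call lost with such a covariate cannot be told apart from lost precision. Fibroblast and keratinocyte markers had no call among 7 genes each, and their summed ranges overlapped between the genotypes. All 7 fibroblast markers had negative log2 fold changes (median -0.20), and 1 was called lower with RLE size factors, DESeq2 or limma-voom, among other alternatives, and 4 with the length trend removed and the replicate block. In bulk libraries, fewer cells of a type and less RNA per cell cannot be told apart.

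Cd209f and Cd209g had the lowest T166A-to-WT ratios of the 10 genes in skin. The lowest, median and highest Cd209f levels were 16.1, 20.6 and 26.5 CPM in T166A libraries, against 36.1, 58.3 and 67.0 CPM in WT libraries. Every T166A library lay below every WT library. The means were 21.4 ± 3.85 CPM in T166A and 56.0 ± 11.7 CPM in WT (SD, n = 6 each), a fitted log2 fold change of -1.39 (SE 0.16). The 12 libraries together held 15660 counts of Cd209f.

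The Cd209g levels were 6.44, 8.37 and 11.7 CPM (lowest, median and highest) in T166A skin libraries and 16.2, 27.4 and 30.1 CPM in WT skin libraries. The groups again did not overlap, although WT replicate 2, at 16.2 CPM, lay far below the other WT libraries (25.4 to 30.1 CPM). The means were 8.64 ± 1.88 CPM in T166A and 25.8 ± 4.95 CPM in WT (SD, n = 6 each), a log2 fold change of -1.58 (SE 0.16). In the order of log2 fold changes from the lowest, Cd209g was gene 67 and Cd209f gene 96 of 15473 tested in skin. The rule named no threshold that would separate them from the genes around them.

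Because reads of the pair can be exchanged, their sum was also taken. Cd209f and Cd209g together had 23.7, 28.4 and 38.2 CPM (lowest, median and highest) in T166A and 52.3, 85.2 and 97.1 CPM in WT skin libraries. The summed level separated the genotypes, as it had to because neither gene overlapped between them, so the sum was no further test. The ratio of Cd209f to Cd209g was 2.04 to 3.24 in T166A and 1.77 to 2.46 in WT, which overlapped.

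**Figure D1:**
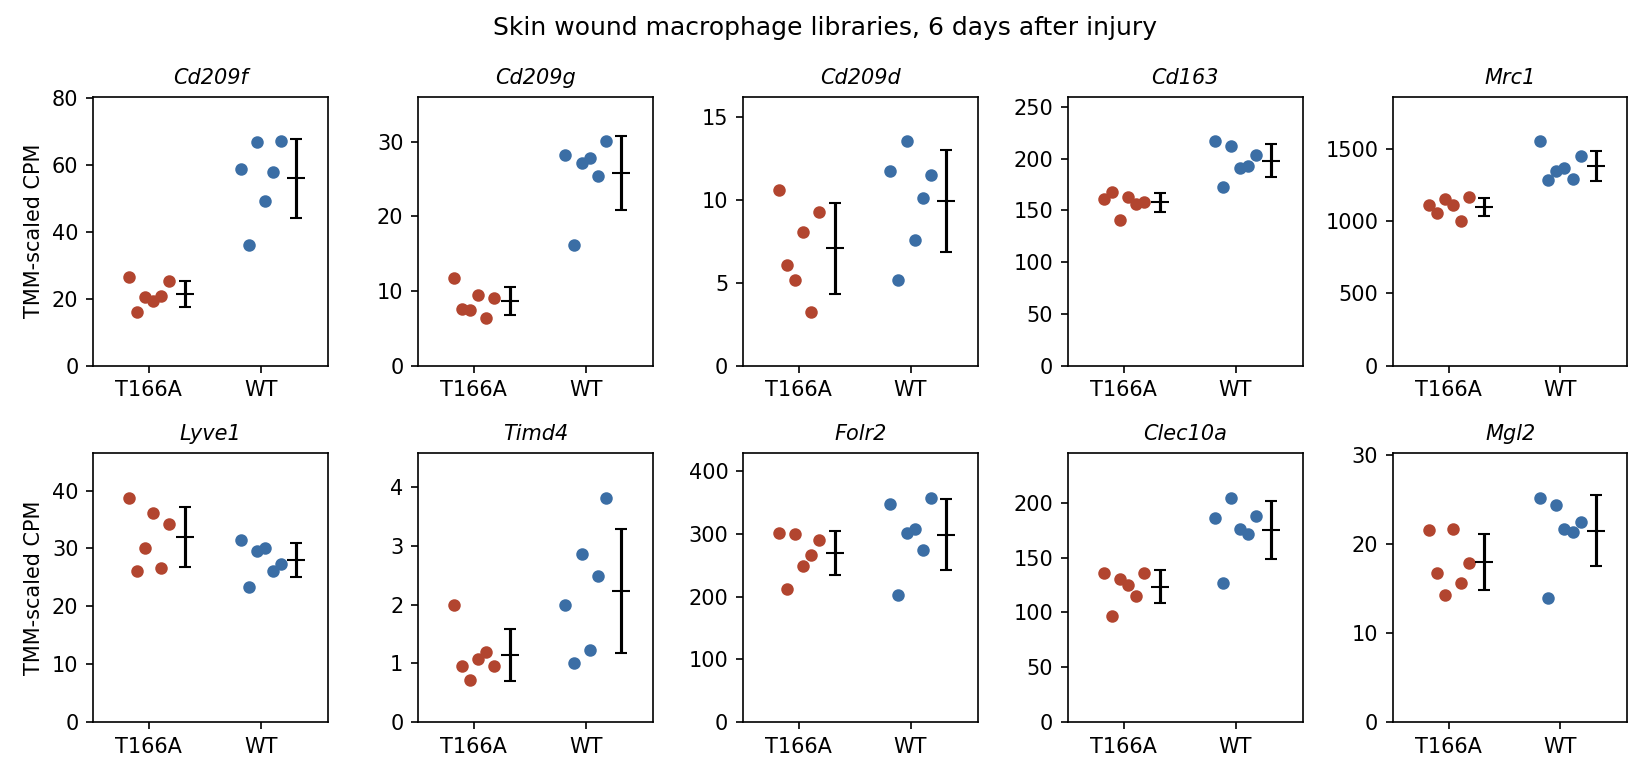
Levels of the 10 genes in skin libraries (TMM-scaled CPM on each y axis, which starts at 0), with T166A on the left and WT on the right, each point a library (n = 6 each) and each bar the mean with SD. Cd209f, Cd209g, Cd163 and Mrc1 have every T166A library below every WT library, and Lyve1 is the gene with a higher T166A mean.

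Of the 8 other members, 4 (Cd163, Mrc1, Clec10a and Timd4) fell in T166A skin libraries, and none rose. At an unadjusted p under 0.05, 4 were lower and 0 higher, against 2823 lower and 2881 higher of all 15473 genes. The test was edgeR's quasi-likelihood F test, with p-values adjusted by the Benjamini-Hochberg method over all genes tested and a threshold of 0.05. The background was high. Of all genes tested, 25.9% were called, 13.2% lower (2048 genes) and 12.7% higher (1963 genes), and with library totals in place of TMM factors these counts were 1308 lower and 3357 higher. All 4 calls stood with library totals and with RLE size factors.

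Cd163 and Mrc1, the scavenger receptor for haemoglobin and the mannose receptor, fell by nearly the same factor. Cd163 had 141, 160 and 168 CPM (lowest, median and highest) in T166A and 173, 198 and 217 CPM in WT. Its log2 fold change was -0.33 (SE 0.06, edgeR adjusted p = 0.000143). Mrc1 had 998, 1108 and 1164 CPM in T166A and 1281, 1359 and 1550 CPM in WT. Its log2 fold change was also -0.33 (SE 0.06, edgeR adjusted p = 0.000111). For both genes every T166A library lay below every WT library, as 6.63% of all genes tested did (5.43% lay the other way), and the two-sided exact permutation p was 0.0021645, the smallest that 6 against 6 libraries allow. Both calls stood without each library in turn. They were lost with the macrophage marker score as a covariate (edgeR adjusted p = 0.373 for Cd163 and 0.551 for Mrc1), a score that itself separated the genotypes.

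The galactose-type lectins differed in their calls. Clec10a fell, with 97.0, 128 and 136 CPM (lowest, median and highest) in T166A and 127, 181 and 205 CPM in WT. WT replicate 2 was the one WT library inside the T166A range. The log2 fold change was -0.51 (SE 0.11, edgeR adjusted p = 0.00421; two-sided exact permutation p = 0.00866). This call was lost with the dendritic cell score (edgeR adjusted p = 0.0776) or the macrophage score (0.966) as a covariate. Mgl2 had 14.3, 17.3 and 21.7 CPM in T166A and 13.9, 22.05 and 25.2 CPM in WT, and the groups overlapped widely. Its log2 fold change of -0.26 (SE 0.14) was not called (edgeR adjusted p = 0.189). Without WT replicate 2, the lowest of the WT libraries, it was -0.35 (edgeR adjusted p = 0.00965). The difference between the responses of the paired lectins was not tested.

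Timd4, the phosphatidylserine receptor, was the least abundant of the 10 genes, at 24 to 126 counts per skin library. It had 0.707, 1.02 and 1.99 CPM (lowest, median and highest) in T166A and 1.01, 2.25 and 3.82 CPM in WT, and the groups overlapped. It fell in T166A by the test (log2 fold change -0.96, SE 0.30, edgeR adjusted p = 0.0234; two-sided exact permutation p = 0.0325). The call was lost without T166A replicate 2 (adjusted p by edgeR 0.0549), T166A replicate 6 (0.0548), WT replicate 3 (0.0514) or WT replicate 6 (0.0806). It was also lost with the adipocyte (0.226), dendritic cell (0.363) or macrophage score (0.965) as a covariate. The log2 fold change was larger in size with the adipocyte score (-1.39) and smaller with the dendritic cell (-0.64) and macrophage scores (-0.10). Summed adipocyte markers separated the genotypes, so the loss with that score cannot be told apart from lost precision.

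Cd209d, Folr2 and Lyve1 had no call. Cd209d, a lectin known as SIGNR3, averaged 7.07 ± 2.73 CPM in T166A and 9.92 ± 3.07 CPM in WT, with ranges of 3.26 to 10.6 and 5.15 to 13.5 CPM (log2 fold change -0.49, SE 0.30, edgeR adjusted p = 0.278). Folr2 averaged 269.7 ± 34.7 CPM in T166A and 298.6 ± 56.2 CPM in WT (-0.15, SE 0.13, edgeR adjusted p = 0.475). Its lowest library in T166A (213 CPM) and its lowest in WT (203 CPM) were close together. Lyve1 had 26.1, 32.2 and 38.8 CPM (lowest, median and highest) in T166A and 23.4, 28.4 and 31.5 CPM in WT, and 3 T166A libraries lay above every WT library. Its log2 fold change was 0.19 (SE 0.10, edgeR adjusted p = 0.153), which passed the threshold with library totals (0.28, edgeR adjusted p = 0.0242). Lymphatic endothelium also makes Lyve1: its 7 markers summed to 565 to 641 CPM in T166A and 610 to 692 CPM in WT, of which Reln, the gene of the secreted protein reelin, rose (9.93 ± 1.40 CPM in T166A and 4.46 ± 1.34 CPM in WT; edgeR adjusted p = 1.01e-05). Pdpn, also a lymphatic marker, was called lower (-0.15, edgeR adjusted p = 0.0305), a call lost with library totals (0.312) and without T166A replicate 2, 4 or 6 or WT replicate 1, 4 or 6. Pdpn made up most of that sum, and 5 of the 6 tested lymphatic markers had positive log2 fold changes, as Lyve1 did, with a median of 0.42. The part of lymphatic cells in the Lyve1 level was not tested. Of 8 exact permutation tests run, those of Cd163, Mrc1, Clec10a and Timd4 were under 0.05.

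Per kilobase of transcript, the levels of the 10 genes in WT skin spanned from 280 ± 52.7 CPM per kb for Folr2 and 257 ± 19.3 for Mrc1 down to 1.03 ± 0.486 for Timd4. Folr2 and Mrc1 did not differ beyond their spread there, nor did Cd209f (47.2 ± 9.90 CPM per kb) and Cd163 (44.6 ± 3.66), while Clec10a lay between these pairs (121 ± 18.2). In T166A skin the order from the top was Folr2 (253 ± 32.5 CPM per kb), Mrc1 (204 ± 11.6), Clec10a (84.9 ± 10.4), Cd163 (35.5 ± 2.12) and Cd209f (18.05 ± 3.25). Cd209g had 7.39 ± 1.61 CPM per kb in T166A and 22.1 ± 4.24 in WT, so that it was level with Cd209d in T166A (7.70 ± 2.97) and above Cd209d in WT (10.8 ± 3.34).

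Set against the mean log2 level of the 10 macrophage markers, the genes fell into separate patterns. The marker score was lower by 0.33 log2 units in T166A, with every T166A library (9.09 to 9.26) below every WT library (9.33 to 9.69). Relative to it, the T166A-minus-WT difference was 0.01 log2 units for Cd163 and 0.0016 for Mrc1, so the decrease of these genes was the size of that of the markers. Clec10a (-0.17), Cd209d (-0.19), Mgl2 (0.08) and Folr2 (0.20) had overlapping groups, as did Timd4 (-0.52). Lyve1 was higher relative to the markers in every T166A library than in any WT library, by 0.52 log2 units. Subtracting a score that was itself lower by 0.33 in T166A adds that amount to every gene, also to an unchanged one. Without the subtraction the Lyve1 groups overlapped, and its log2 fold change of 0.19 was not called (edgeR adjusted p = 0.153). The share of all genes that separate after the subtraction was not computed. Cd209f and Cd209g stayed lower relative to the markers, by 1.04 and 1.24 log2 units, without overlap between the groups. With the score as a covariate their fitted log2 fold changes were smaller in size, -0.75 for Cd209f and -0.91 for Cd209g. These differences are descriptions, and what moved the markers was not tested.

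**Figure D2:**
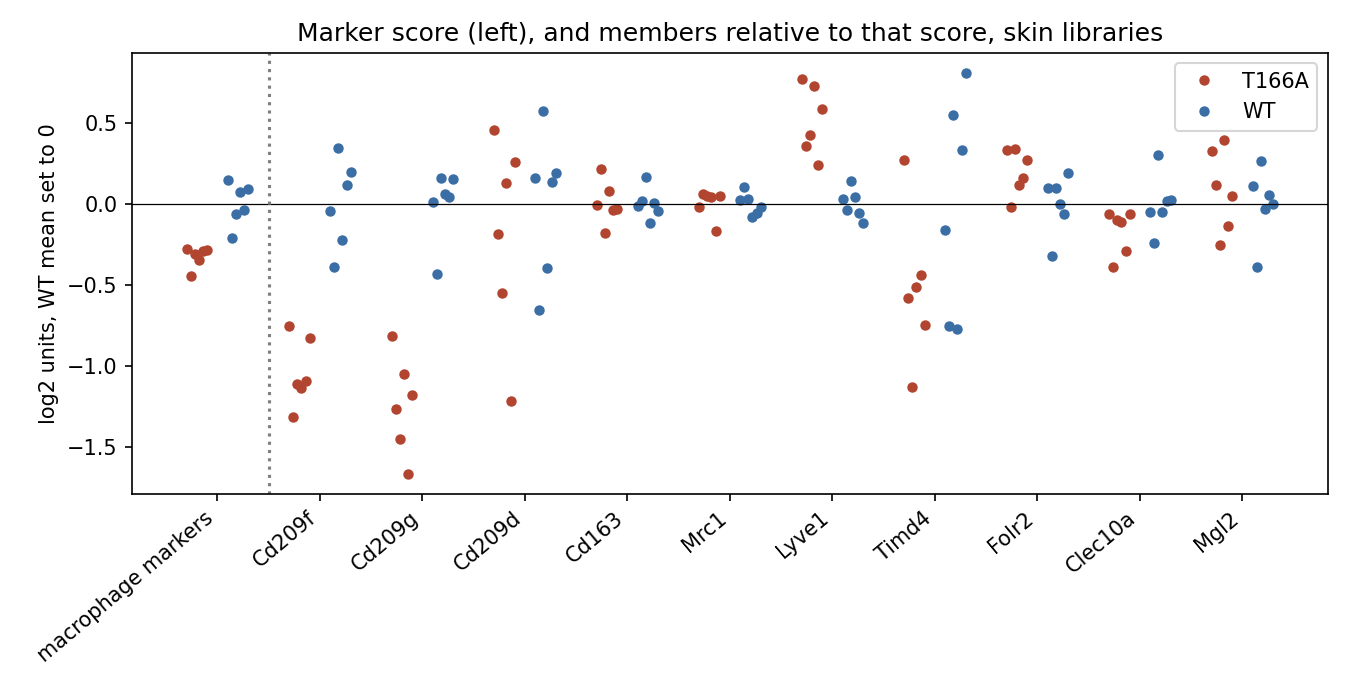
Mean log2 CPM of the 10 macrophage markers per skin library (left of the dotted line) and the log2 CPM of each of the 10 genes minus that mean, with the WT mean set to 0 in each column; each point is a library, T166A left of WT. Cd163 and Mrc1 lie around 0 in both genotypes, Cd209f and Cd209g lie below 0 in every T166A library, and Lyve1 lies above 0 in every T166A library. Subtracting the marker mean, itself lower in T166A (-0.33), raises the T166A values of every gene.

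The remaining CD209 genes gave further measurements of the family in skin. Of the 4 that were listed and tested, Cd209b and Cd209a fell, and all 4 had negative log2 fold changes. Of all genes tested in skin, 13.2% were called lower and 48.4% had negative values. Among libraries of the same genotype, Cd209a (Pearson r = 0.85) and Cd209b (0.62) varied with Cd209f, so they were not independent measurements. Cd209b, the SIGNR1 lectin of marginal zone macrophages in the spleen, had 1.94, 4.08 and 6.94 CPM (lowest, median and highest) in T166A and 7.64, 10.1 and 15.4 CPM in WT. Every T166A library lay below every WT library, as for 6.63% of all genes tested. The log2 fold change was -1.30 (SE 0.35, edgeR adjusted p = 0.0179), and the call stood without each library in turn. Cd209a, the mouse lectin named DC-SIGN, averaged 12.5 ± 3.80 CPM in T166A and 22.6 ± 6.90 CPM in WT (-0.86, SE 0.26, edgeR adjusted p = 0.0350). Its call was lost without each of 9 of the 12 libraries (T166A replicates 2 to 6 and WT replicates 1, 3, 5 and 6; edgeR adjusted p 0.0544 to 0.0759) and with no low count filter (0.0525), and it stood in 12 of 25 alternatives. Both calls were lost with the adipocyte, dendritic cell or macrophage score as a covariate (edgeR adjusted p 0.184 to 0.998). With the adipocyte score the log2 fold change of Cd209a was larger in size (-1.18) and that of Cd209b smaller (-1.17). Summed adipocyte markers separated the genotypes, so the losses with that score cannot be told apart from lost precision. Cd209c (2.58 ± 0.389 CPM in T166A and 3.05 ± 1.10 CPM in WT) and Cd209e (1.24 ± 0.621 CPM in T166A and 1.72 ± 0.308 CPM in WT) had no call.

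In BMDM, none of the 8 members tested changed by edgeR's test, DESeq2 or limma-voom. By edgeR 0.0685% of 13139 genes were called, 0.0609% higher (8 genes) and 0.00761% lower (1 gene). With the replicate number as a block, the calls were 8 and 2, and with DESeq2 they were 253 and 147. At an unadjusted p under 0.05, 1 member, Mgl2, was lower, as were 831 of the 13139 genes (856 were higher). Cultured BMDM made little of the CD209 lectins and much of Folr2, and the genotypes overlapped for 7 of the 8 tested members.

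Cd209f had 1.15, 1.91 and 2.77 CPM in the T166A BMDM libraries and 0.702, 1.02 and 1.52 CPM in the WT BMDM libraries. The T166A mean was higher, but 1 T166A library lay within the WT range (log2 fold change 0.82, SE 0.46, edgeR adjusted p = 0.492). The within-batch log2 ratio was 0.88 in B1 and 0.71 in B2. Cd209g was at 0 to 31 counts per library, for a fitted log2 fold change of -0.08 with SE 1.08 (edgeR adjusted p = 0.984). Cd209d had 0 counts in all T166A libraries and in 2 WT libraries, and 16 counts in WT replicate 2. Lyve1 had 0 counts in all 6 libraries, which allows up to 3 counts or 0.0679 to 0.0749 CPM per library, for counting error only. Cd209b, Cd209c and Cd209e were also at 0 in every BMDM library.

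The endocytic receptors were well covered in BMDM. Folr2 had 778, 839 and 915 CPM in T166A and 913, 951 and 970 CPM in WT (log2 fold change -0.16, SE 0.11, edgeR adjusted p = 0.570). Mrc1 had 185, 218 and 265 CPM in T166A and 174, 188 and 194 CPM in WT (0.26, SE 0.15, edgeR adjusted p = 0.501). The log2 ratio of Mrc1 was 0.42 within B1 and -0.07 within B2, so the batches did not give the same sign. Clec10a had 94.3, 117 and 122 CPM in T166A and 106, 114 and 118 CPM in WT (-0.03, SE 0.12, edgeR adjusted p = 0.935). Cd163 had 4.96, 11.4 and 13.8 CPM in T166A and 6.06, 6.16 and 12.8 CPM in WT (0.18, SE 0.30, edgeR adjusted p = 0.827), with a log2 ratio of 0.41 within B1 and -0.29 within B2. Each B2 ratio rests on 1 library per genotype.

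Mgl2 had 0.763, 1.81 and 2.16 CPM in T166A and 2.91, 3.24 and 3.72 CPM in WT BMDM, without overlap, as 6.97% of all genes tested did (6.67% lay the other way). Its log2 fold change of -1.16 (SE 0.39) had an unadjusted p of 0.0158 and an edgeR adjusted p of 0.296, so it was not called. It was lower in T166A within both batches, by log2 ratios of -0.81 in B1 and -1.93 in B2. Timd4 had 1.10, 1.34 and 2.34 CPM in T166A and 2.07, 2.44 and 3.21 CPM in WT (-0.70, SE 0.44, edgeR adjusted p = 0.528), with ratios of -0.62 in B1 and -0.87 in B2.

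**Figure D3:**
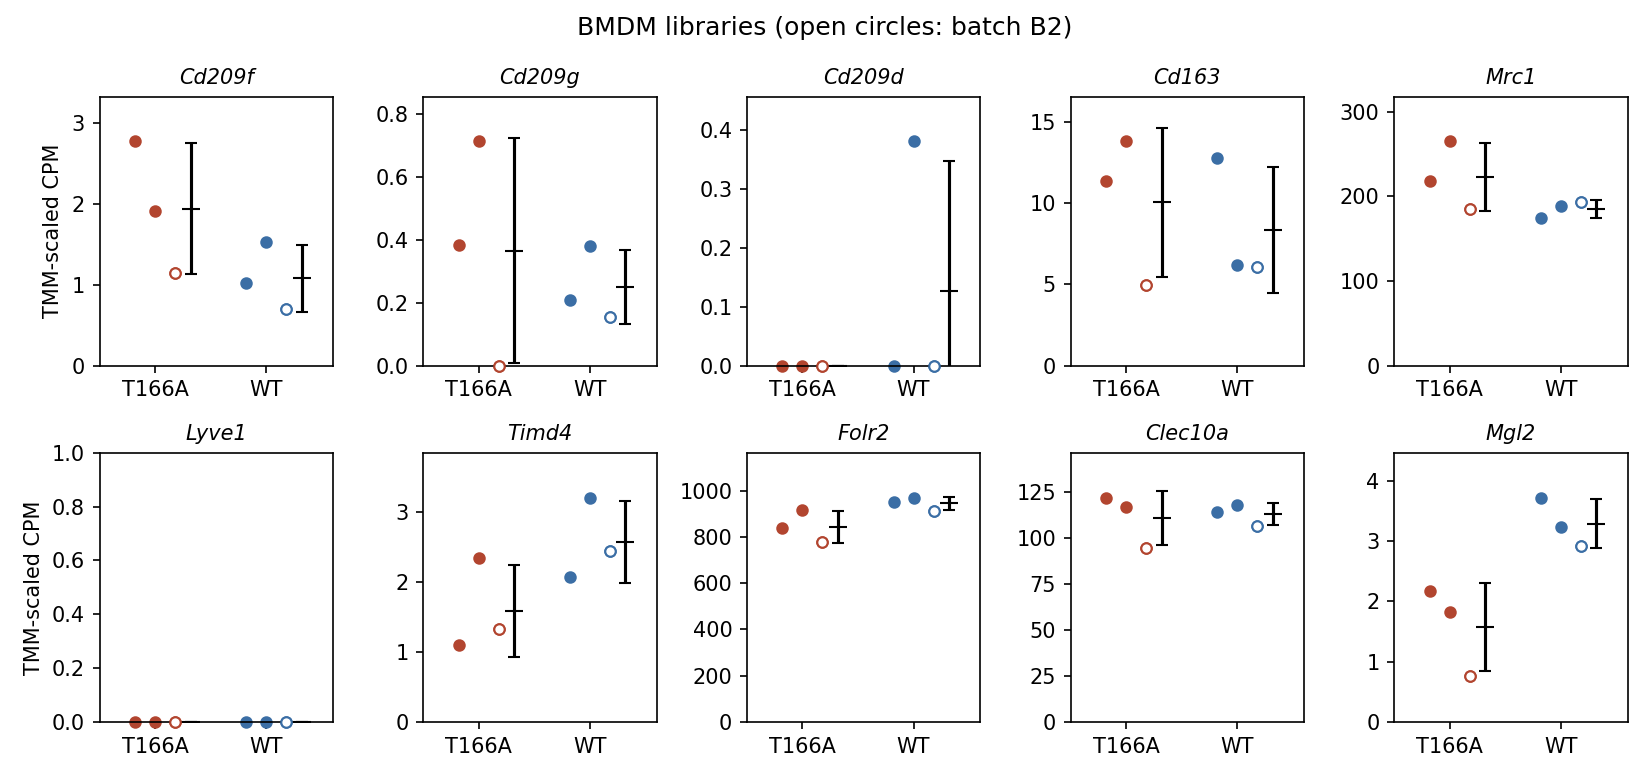
Levels of the 10 genes in BMDM libraries (TMM-scaled CPM on each y axis, which starts at 0), T166A left of WT, each point a library (n = 3 each; open circles are batch B2) and each bar the mean with SD. Mgl2 is the one tested gene whose groups do not overlap, and Lyve1 is at 0 in all 6 libraries.

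Whether the T166A effect differed between the sources was tested in 1 fit over all 18 libraries for the 6 members tested in both sources and not chosen by their skin values. The effect of T166A on Mrc1 was lower in skin than in BMDM by 0.55 log2 units (-0.55, SE 0.12, edgeR adjusted p = 0.00508). For Mgl2 it was higher in skin, by 0.90 (SE 0.28, edgeR adjusted p = 0.0380), with separate log2 fold changes of -0.26 in skin and -1.16 in BMDM. Among all 16586 genes tested, 8.13% were called lower and 6.16% higher in this contrast (1348 and 1022 genes; 1626 and 764 with RLE size factors). The Mgl2 call was lost with RLE size factors (adjusted p by edgeR 0.0522). It was also lost without any one of 9 libraries: WT BMDM replicates 1 and 3, T166A BMDM replicates 2 and 3, WT skin replicates 4 and 6, and T166A skin replicates 1, 4 and 6 (0.0501 to 0.142). The Mrc1 call stood without each library in turn. When each source kept its own estimate of the spread, neither was called (adjusted p = 0.0758 for Mrc1 and 0.260 for Mgl2, from separate edgeR fits). Cd163 (-0.48, edgeR adjusted p = 0.144), Clec10a (-0.44, 0.0780), Timd4 (-0.22, 0.863) and Folr2 (0.06, 0.915) had no call. Cd163 was called without WT BMDM replicate 1 (-0.78, edgeR adjusted p = 0.0159) and Clec10a without WT skin replicate 2 (-0.52, edgeR adjusted p = 0.0145).

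**Figure D4:**
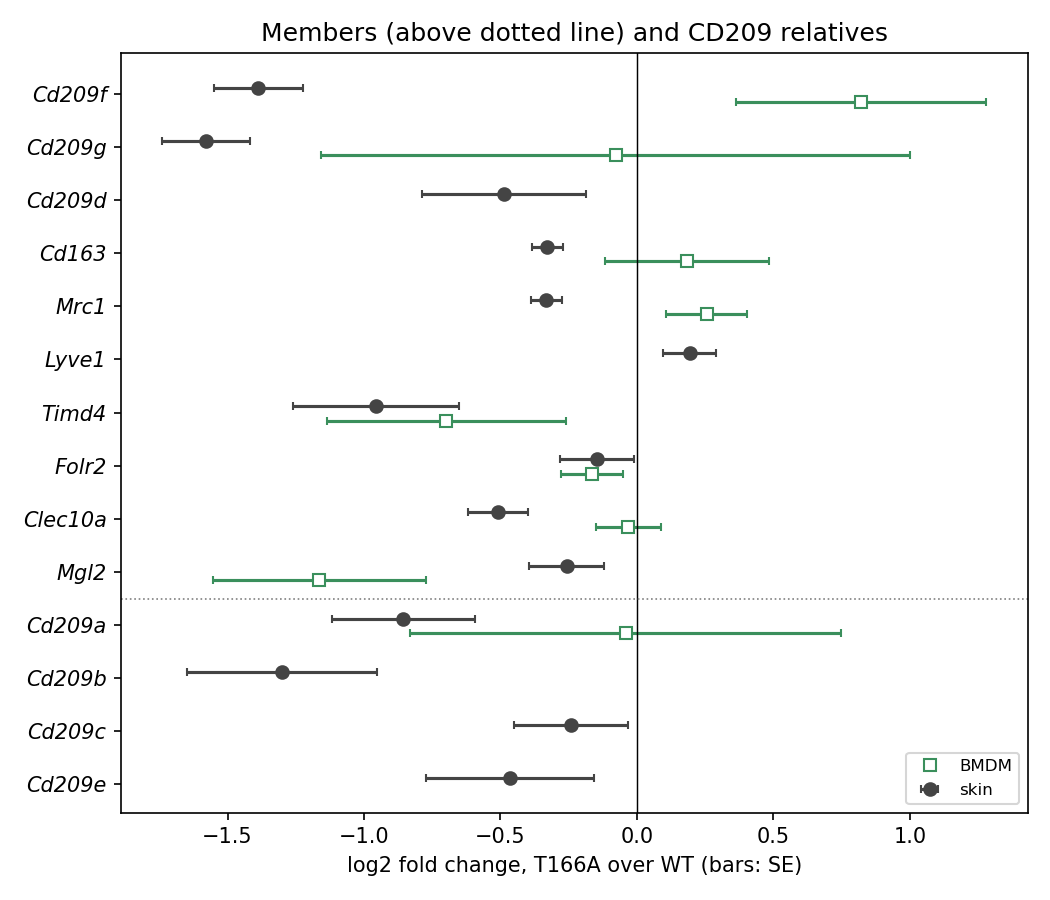
Fitted log2 fold change, T166A over WT, with SE, for the 10 genes (above the dotted line) and 4 other CD209 genes, in skin (filled circles, n = 6 each) and BMDM (open squares, n = 3 each; genes not tested there have none). The skin values of Cd209f and Cd209g (-1.39 and -1.58), by which these genes were chosen, are the lowest of the 14 skin values.

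Other genes of resident macrophages, from a list of 20, moved in part with the 10 genes in skin: 8 fell and 1 rose, with a median log2 fold change of -0.24 against 0.01 over all genes tested. Hpgd, which degrades prostaglandins, fell most clearly (3.11 ± 0.472 CPM in T166A, 7.03 ± 0.817 CPM in WT; -1.17, edgeR adjusted p = 8.36e-07). The growth factor Igf1 fell (72.4 ± 4.16 CPM in T166A, 98.6 ± 7.35 CPM in WT; -0.44, edgeR adjusted p = 4.08e-06), as did the selenium carrier Selenop (-0.30, edgeR adjusted p = 0.00814). With the macrophage score as a covariate 2 of the 20 were called lower and 3 higher; of the lower, Hpgd was one (-1.25, edgeR adjusted p = 0.00647), while Igf1 was not (-0.27, 0.154).

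Among 20 tested lectins and endocytic receptors outside the 10 genes, 8 fell and 1 rose, with a median of -0.17. Siglec1, the sialic acid-binding receptor of tissue macrophages, fell (151 ± 9.29 CPM in T166A, 241 ± 31.7 CPM in WT; -0.67, edgeR adjusted p = 1.72e-06), as did the inhibitory lectin Clec4a3 (-0.55, edgeR adjusted p = 0.000124). The abundant scavenger receptor Lrp1 was not called (1715 ± 145 CPM in T166A, 1894 ± 167 CPM in WT; edgeR adjusted p = 0.105). The Clec4a3 and Siglec1 calls were lost with the macrophage score as a covariate (edgeR adjusted p = 0.549 and 0.109).

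Of 16 receptors and factors known to act on these genes, 11 fell and 2 rose, with a median of -0.22; with the macrophage score as a covariate 3 were called lower and 0 higher. Klf4, a factor of alternative activation, fell (97.9 ± 3.01 CPM in T166A, 155 ± 16.5 CPM in WT; -0.66, edgeR adjusted p = 4.00e-08). Il10rb, a chain of the interleukin 10 receptor, fell (180 ± 11.8 CPM in T166A, 239 ± 4.61 CPM in WT; -0.41, edgeR adjusted p = 1.34e-06). The interleukin 4 receptor chain Il4ra was not called (-0.16, edgeR adjusted p = 0.109).

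Of 15 genes of recruited monocytes, 3 fell and 2 rose, with a median of -0.05 (log2). The integrin gene Itgal fell (-0.47, edgeR adjusted p = 0.000156) and Thbs1 was not called (-0.08, edgeR adjusted p = 0.413). Hp, which encodes the haptoglobin whose complex CD163 takes up, rose (83.6 ± 7.46 CPM in T166A, 20.5 ± 2.10 CPM in WT; 2.03, edgeR adjusted p = 6.14e-15). Adipocytes also make Hp, and their markers were higher in the same libraries, so its source was not tested. Dendritic cell markers had 2 higher and 2 lower calls among 11 genes, with a positive median log2 fold change (0.23) and 5 negative values. The 2 called lower were Kmo (-0.75, edgeR adjusted p = 0.00153) and Xcr1 (-0.46, edgeR adjusted p = 0.000937), so the list had no common direction. The summed level of the 11 markers was 83.8 to 96.3 CPM in T166A and 73.6 to 93.4 CPM in WT. Neutrophil markers had 4 lower calls among 7 genes (158 to 261 CPM summed in T166A, 258 to 308 CPM in WT), but 1 or 2 without any one of 8 libraries (T166A replicates 1, 2, 4, 5 and 6, and WT replicates 2, 3 and 5). The 2 higher dendritic cell calls became 0 without T166A replicate 2 or WT replicate 1, and 1 without T166A replicate 1, 4 or 6 or WT replicate 4, 5 or 6. The rise among resident macrophage genes was lost without T166A replicate 3, 5 or 6 or WT replicate 2, 3, 4 or 5, the monocyte genes that rose numbered 4 without T166A replicate 3, and the lectins and endocytic receptors that rose numbered 2 without T166A replicate 3 or WT replicate 2. With the adipocyte score as a covariate the calls of Itgal (edgeR adjusted p = 0.168), Kmo (0.144), Xcr1 (0.398) and Clec4a3 (0.0523) were lost, and with the dendritic cell score that of Selenop (0.136). In the adipocyte score fit the log2 fold changes of Kmo (-0.90) and Clec4a3 (-0.66) were larger in size, and those of Itgal (-0.42) and Xcr1 (-0.32) smaller. In BMDM no gene of any of these lists was called, and 7 of the 8 adipocyte markers were at 0 in every library.

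**Figure D5:**
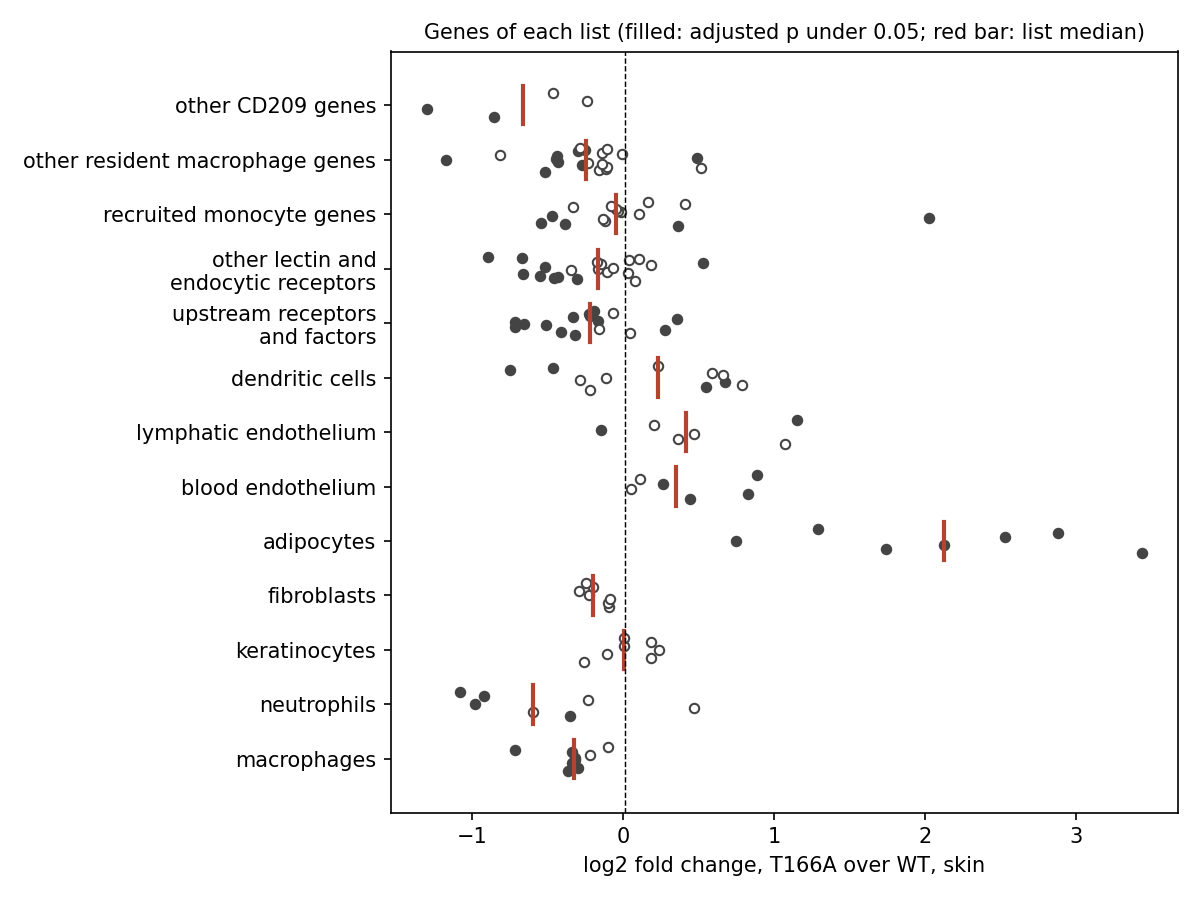
Log2 fold change, T166A over WT, in skin for the tested genes of each list (each point a gene, filled where the edgeR adjusted p is under 0.05; red bars are list medians; the dashed line is the median of all genes, 0.01). Adipocyte markers lie furthest right (median 2.12), and the other CD209 genes (median -0.66) and neutrophil markers (-0.59) lie furthest left.

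The 10 genes tended to vary together among libraries of the same genotype, but the share of positive pairs among all genes was not computed. Across the 12 skin libraries, after subtraction of each genotype's mean, all 45 pairs of members had a positive Pearson r of log2 CPM, with a median of 0.65 and a range of 0.15 to 0.91. WT replicate 2 was the lowest WT library for all 10 genes, while the lowest T166A library was replicate 2 for 4 genes, replicate 3 for 3 and replicate 5 for 3. The genes whose pattern was most like that of Cd209f, of 15472 ranked, were Cma1, a mast cell chymase (r = 0.95), Zyx (0.92), Clec10a (0.91), Trafd1 (0.91) and Alox5ap (0.90). Cd209a (r = 0.85) and Folr2 (0.85) ranked 24 and 27, and Cd209g (0.75) ranked 169. Cd163 (0.50) and Mrc1 (0.48) ranked 1405 and 1553, so many genes outside the 10 were more like Cd209f than these. Cd209f and Cd209g may share reads, as may Clec10a and Mgl2, so the r within each pair is uncertain. These correlations describe 12 libraries that share a scaling and a cell preparation, and no test was made.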

How the data were processed

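Raw counts per RefSeq transcript were deposited by the authors in 1 table per source. The tools named, per the submitters' processing notes, are cutadapt 4.4, HISAT2 2.2.1, featureCounts and FastQC 0.12.1, with the mm10 build; no source used here gives strand or multi-mapping settings. Transcripts were matched to genes through RefSeq (45697 of 45843 in skin, 45749 of 45895 in BMDM) or GENCODE (29 in each); 117 in each, with 0.187% and 0.514% of the counts, were left out. For each gene the row with the highest CPM total was kept. edgeR 4.0.16 in R 4.3.3 was used (TMM; filterByExpr at minimum counts of 10 per library and 15 in total; quasi-likelihood F test, robust; Benjamini-Hochberg threshold 0.05), with genotype in skin and genotype and batch in BMDM. The scripts were tested on simulated data. The biological coefficient of variation was 0.133 in skin and 0.279 in BMDM. A marker score averages the log2 CPM (prior count 2) of its genes. Same-numbered BMDM libraries deviated together after subtraction of genotype means (r = 0.20, 0.11 and 0.19), and the block is given beside BMDM counts. The same number also meant the same batch, which was not subtracted, so a pairing cannot be told apart from the batch. Alternatives used DESeq2 1.42.0, limma 3.58.1, other scalings and filters, marker scores as covariates and single libraries left out. Members and lists were chosen with earlier results of these data known. Named genes are the 10 members, the 2 genes per list with the smallest skin adjusted p and its most abundant gene, and the 5 genes most like Cd209f in pattern. A gene that this rule also names is not reported here.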

Additional observations from a re-analysis of the deposited data

Results flagged for a closer look

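In WT skin libraries, replicate 2 stood apart from the other 5 for Cd209g (16.2 CPM, against 25.4 to 30.1 CPM in the other WT libraries) and for Mgl2 (13.9 CPM, with the WT median at 22.05 CPM). Its gap to the nearest library, divided by the range of the group, passed Dixon's critical value for 6 libraries. These were 2 of 28 groups examined, and chance gives about 1 in 20. The effect of T166A differed between skin and BMDM for Mrc1 (-0.55 log2 units, skin minus BMDM) and for Mgl2 (0.90 log2 units) in the fit over all 18 libraries. Neither was called with separate fits, and the Mgl2 call was lost in 11 of 23 alternatives.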

How the results depend on the processing

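The calls of Cd163 and Mrc1 in skin stood in 24 of 25 alternatives each, that of Clec10a in 23 of 25 and that of Timd4 in 17 of 24 (it was not tested at a minimum count of 50). The alternatives with library totals without scaling factors and the macrophage marker score as a covariate were chosen after seeing the data (that score separated the genotypes without overlap). Of the 8 other members, 2 were called lower in skin with the dendritic cell score and 0 with the macrophage score, in place of 4, and 3 to 5 without single libraries. In place of 0, 1 was called higher with library totals, the replicate block, or length trend and replicate block together (Lyve1), and 1 with the macrophage score (Folr2, 0.61, edgeR adjusted p = 0.00205). Skin replicate numbers did not pair the libraries (r from -0.05 to 0.09), and with the replicate block Lyve1 had an edgeR adjusted p of 0.0318 and the other members kept their side of the threshold. Genes called higher and lower in skin numbered 3357 and 1308 with library totals, 507 and 822 with the adipocyte score, 977 and 1110 with the dendritic cell score, and 302 and 352 with the macrophage score. With the macrophage score the log2 fold change changed sign for Cd209d (0.18), Folr2 (0.61), Mgl2 (0.25), Cd209c (0.55), Col3a1 (0.0737), Csf3r (0.0521), Il4ra (0.23), Krt14 (-0.77), Krtdap (-0.55), Pdpn (0.0641) and Selenop (0.14). With the adipocyte score it did so for Cd209e (0.26), Col3a1 (0.50), Dcn (0.21) and Thbs1 (0.0958), with library totals for Col3a1 (0.00411) and Thbs1 (0.00564), and with the dendritic cell score for Krtdap (-0.14). In BMDM the genes called higher, 8, became 84 with no filter, 13 at a minimum count of 50, 0 with counts summed over transcripts or with no batch term, 253 with DESeq2, 148 with limma-voom, 16 with the length trend removed, 19 with the block as well and 21 in B1 alone. Genes called lower, 1, became 2 with RLE, a minimum count of 50, the block or the length trend, 21 with no filter, 147 with DESeq2, 29 with limma-voom, 3 with length trend and block, and 0 with summed counts, with no batch term and in B1 alone. The BMDM sign changed for Cd209g (0.90 by limma-voom, 0.15 with the length trend removed, 0.12 with the block as well, 0.55 with no batch term, 0.89 in B1), Folr2 (0.0498 and 0.0517 with the length trend removed, without and with the block) and Clec10a (0.00185 with library totals, 0.00372 by limma-voom, 0.14 with the length trend removed with or without the block, 0.0388 in B1). For the difference between sources, members called higher, 1, became 0 with RLE and with separate fits, members called lower, 1, became 0 with separate fits, and genes called became 111 higher and 201 lower with separate fits. Without single libraries the ranges were 0 to 18 genes higher and 0 to 8 lower in BMDM; 0 to 1 members higher, 1 to 2 members lower, 684 to 1870 genes higher and 1138 to 1745 genes lower for the difference between sources; -0.95 to 0.89 for Cd209g, -0.14 to 0.46 for Cd163 and -0.0754 to 0.0403 for Clec10a in BMDM; -0.17 to 0.00136 for Col3a1 in skin; and -0.46 to 0.16 for Timd4 and -0.0353 to 0.12 for Folr2 in the difference between sources. The causes of these changes were not tested. Low counts limit Timd4 in skin and Cd209g, Cd209d and Lyve1 in BMDM.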
